A study of Mus musculus with 3 samples.

Results

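The guanylate-binding proteins (GBPs) and immunity-related GTPases (IRGs) described here are 10 mouse genes chosen by name from the 55536 genes of the deposited tables. They comprise 6 GBP genes (Gbp2, Gbp3, Gbp4, Gbp5, Gbp7 and Gbp8) and 4 IRG genes (Irgm1, Irgm2, Igtp and Ifi47), and all 10 were found. Their transcripts were measured by total RNA sequencing of monocytes from the blood of adult C57BL/6J mice aged 5 to 6 weeks. The series holds 3 libraries of 1 group, numbered as biological replicates 1 to 3, with no treatment recorded and no second condition. Each was made from 100 ng of RNA depleted of ribosomal RNA. The 3 libraries share 1 donor record, the sex was not collected, and no gate for the isolated cells is stated in the labels. What the p-values measure is thus the spread among these 3 libraries alone, and that spread may be technical.

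GBPs and IRGs are large GTPases of cell-autonomous immunity, made in most mouse cells after exposure to interferon gamma. GBPs, several of which carry a prenyl anchor, assemble on bacteria and on the vacuoles that enclose parasites, and they promote inflammasome activation. Effector IRGs disrupt such vacuoles, while the regulatory IRGs Irgm1, Irgm2 and Igtp sit on the cell's own membranes and hold the effectors in check. Promoters of genes induced by interferons often hold gamma-activated sites (GAS) or interferon-stimulated response elements (ISRE), and IRF factors bind the ISRE.

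Matches to both elements were searched in the RefSeq promoters (GRCm38.p6) of these genes, 250 bases before to 50 bases after each annotated start. The table held 9 promoters of 8 members, Gbp3 having separate starts, and no entry was found for Gbp4 or Gbp8. An ISRE was searched as GAAA, NN and GAAA in direct succession, with N for any base, and a GAS as TTCNNNGAA, on both strands. An ISRE match was present in 7 of 8 members, Ifi47 being the one without, whereas 3.99% of all 27025 genes in the table held one in any promoter. A GAS match was present in 4 of 8 members, Gbp5, Gbp7, Igtp and Irgm2, against 9.55% of all genes. These 4 members held both motifs, as did 0.540% of all genes. Counted by promoter, 7 of the members' 9 held an ISRE match and 4 a GAS match, against 3.44% and 8.30% of all 32851 promoters. The matches are descriptions of sequence, and no factor binding was measured in these libraries.

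The stretches upstream of the start that hold the matches are printed 5′ to 3′ in the direction of transcription, with matched bases in capitals, to show how closely the motifs are set. Of the neighbouring genes of chromosome 3, Gbp5 (chr3:142496684-142496933, plus strand) and Gbp7 (chr3:142530086-142530335, plus strand) held 2 GAS matches each beside 1 ISRE match.
Gbp5: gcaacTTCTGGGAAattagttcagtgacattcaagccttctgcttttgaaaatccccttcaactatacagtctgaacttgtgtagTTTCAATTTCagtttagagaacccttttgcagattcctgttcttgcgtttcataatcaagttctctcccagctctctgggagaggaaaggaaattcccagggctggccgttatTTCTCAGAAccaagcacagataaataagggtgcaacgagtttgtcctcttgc
Gbp7: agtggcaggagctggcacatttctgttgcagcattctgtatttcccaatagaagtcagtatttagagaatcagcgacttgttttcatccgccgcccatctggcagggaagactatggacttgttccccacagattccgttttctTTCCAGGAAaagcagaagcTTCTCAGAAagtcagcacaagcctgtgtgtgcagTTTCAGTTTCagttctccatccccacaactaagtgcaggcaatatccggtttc
Gbp3 (chr3:142559972-142560041, plus strand) held 2 overlapping ISRE matches at its first start, and Gbp2 (chr3:142620574-142620643, plus strand) held 1. The ISRE matches of these 4 genes read on the strand opposite to the gene.
Gbp3: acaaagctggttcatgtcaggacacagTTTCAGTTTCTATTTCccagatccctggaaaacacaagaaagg
Gbp2: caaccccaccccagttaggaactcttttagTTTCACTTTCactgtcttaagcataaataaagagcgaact
On chromosome 11, Irgm1 (chr11:48871421-48871490, minus strand) held 2 overlapping ISRE matches. Igtp (chr11:58199486-58199555, plus strand) and Irgm2 (chr11:58214877-58214946, plus strand) held a GAS match followed closely by an ISRE match, and these 70-base windows were identical at 68 of 70 bases.
Irgm1: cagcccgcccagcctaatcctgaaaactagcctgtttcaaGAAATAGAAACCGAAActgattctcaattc
Igtp: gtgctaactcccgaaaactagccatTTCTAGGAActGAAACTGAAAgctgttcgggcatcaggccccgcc
Irgm2: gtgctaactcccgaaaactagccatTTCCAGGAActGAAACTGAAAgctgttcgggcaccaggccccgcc

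**Figure D1:**
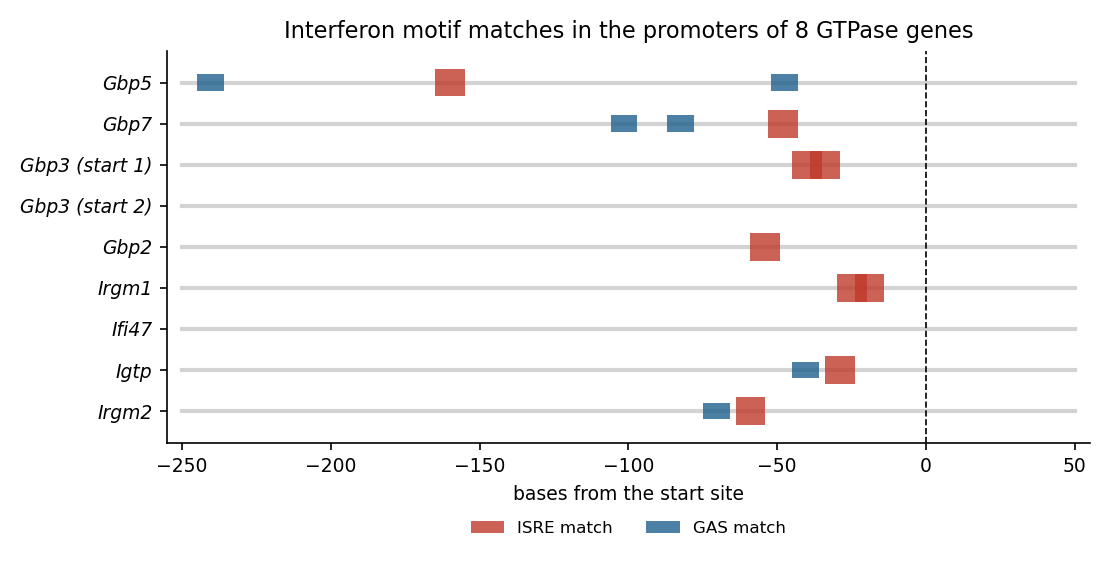
Matches to the ISRE (red, tall) and GAS (blue, short) motifs in the 9 RefSeq promoters of 8 members, plotted by distance in bases from the annotated start (dashed line), with upstream negative. The ISRE matches of Gbp7, Gbp3, Gbp2, Irgm1, Igtp and Irgm2 lie within 64 bases upstream of the start, that of Gbp5 lies at 165 to 156 bases, and neither Ifi47 nor the second start of Gbp3 has a match.

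Library 3 held 19.9 M expected counts (estimated reads per gene), against 27.2 and 26.5 M in libraries 1 and 2. Levels are given as TPM, a share of all transcripts that divides by transcript length, over a total that lies mostly outside protein-coding genes. If the total is taken over protein-coding genes instead, 1 TPM becomes 9.34 TPM in library 3, against 9.16 and 10.2 TPM in libraries 1 and 2. Of 12 monocyte markers, 11 lay above 1 TPM and 1, Fcgr1, lay on neither side. They summed to 1509 TPM in library 3, against 2509 and 2100 TPM in libraries 1 and 2. Most of that sum was Lyz2, with 718 TPM in library 3, against 1448 and 1238 TPM, and Ctss, with 234 TPM, against 497 and 369 TPM. The remaining markers differed in both directions. Csf1r had 86.6 TPM in library 3, against 69.8 and 52.4 TPM in libraries 1 and 2, and Spi1 had 31.6 TPM, against 64.7 and 47.3 TPM. Markers of other blood cells were present too, and library 3 stood apart from libraries 1 and 2 in several of them.

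Of the 10 GTPase genes, 9 lay above 1 TPM, none lay below it, and 1, Irgm2, lay on neither side (edgeR quasi-likelihood test, Benjamini-Hochberg adjusted over 17678 genes, threshold 0.05). No member lay below 1 TPM at an unadjusted p of 0.05, with DESeq2 or with limma either. Of all protein-coding genes tested, 54.0% were called above 1 TPM and 6.02% below it. Over all genes tested, 43.2% were called above and 6.35% below. The members' mean levels ran from 1.46 to 5.63 TPM, with a median of 3.97 TPM, where the median protein-coding gene tested had 2.09 TPM. In the ranking of protein-coding genes by mean TPM they stood between the 66.3 and the 83.9 percentile. Each member had 340 to 2371 expected counts per library, and the authors' own SD of a member's count reached at most 11.4. That SD is of the gene's count, so it does not cover how reads were divided among the transcripts of a gene. Without library 3 edgeR called 8 of the 10 above 1 TPM. With DESeq2's Wald test 6 genes were called above 1 TPM, Gbp5, Gbp7 and Igtp losing their calls, and against a level of 2 TPM edgeR called 5.

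**Figure D2:**
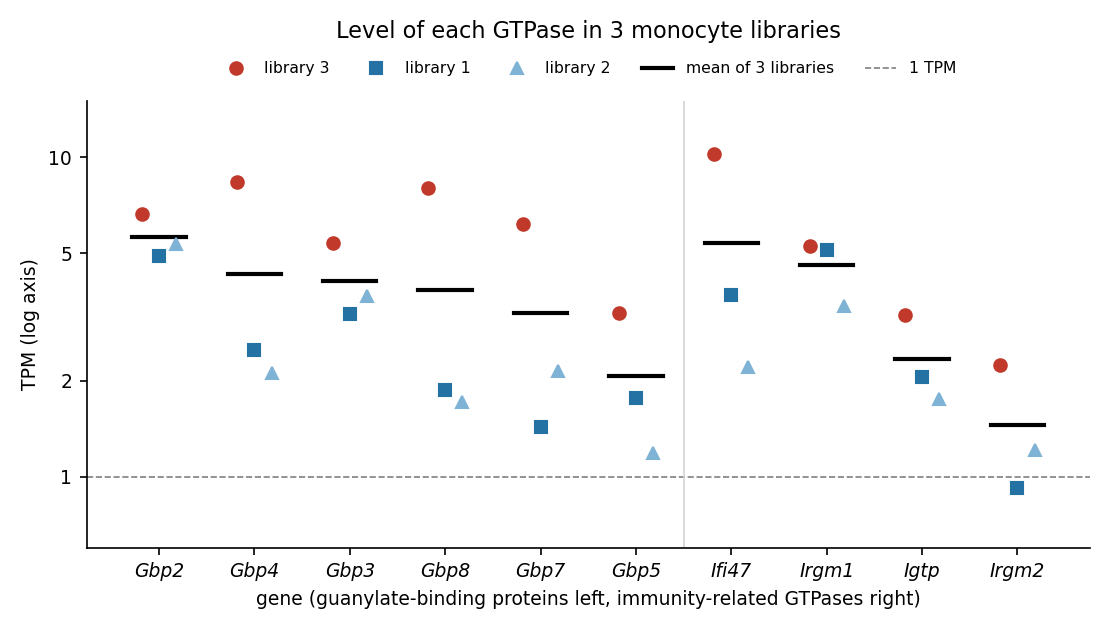
TPM (log axis) of the 6 GBP genes (left) and 4 IRG genes (right) in library 3 (circles), library 1 (squares) and library 2 (triangles), with the mean of 3 libraries as a bar and 1 TPM as a dashed line. Library 3 has the highest value for all 10 genes, from 2.24 TPM for Irgm2 to 10.2 TPM for Ifi47.

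The members on chromosome 3, Gbp5, Gbp7, Gbp3 and Gbp2 (mm10), lie on the plus strand within 144 kb. Gbp2 (ENSMUSG00000028270.12, chromosome 3, 142620602 to 142638008), a prenylated GBP that is recruited to parasite vacuoles in mice, had 6.64 TPM in library 3, against 4.89 and 5.35 TPM in libraries 1 and 2. Its mean of 5.63 TPM ± 0.907 (SD, n = 3) was the highest of the 10, with an edgeR adjusted p of 1.24e-07 against 1 TPM. It was also the steadiest, with a coefficient of variation of 16.1%. Gbp3 (ENSMUSG00000028268.14, 142560026 to 142573209), a GBP encoded near Gbp2, had 5.38 TPM in library 3, against 3.22 and 3.67 TPM in libraries 1 and 2 (edgeR adjusted p = 2.69e-06). Both genes kept all 3 values well above 1 TPM.

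Gbp5 and Gbp7 were lower and less even. Gbp5 (ENSMUSG00000105504.4, 142493978 to 142522344), which promotes NLRP3 inflammasome assembly in mouse macrophages, had 3.26 TPM in library 3, against 1.77 and 1.19 TPM in libraries 1 and 2. Its call above 1 TPM (edgeR adjusted p = 0.00737) was lost without library 3, where the edgeR adjusted p was 0.0787. The call was also lost with DESeq2's Wald test (adjusted p = 0.387). Alternatives that tested another level gave edgeR adjusted p-values of 2.42e-09 on the protein-coding scale and 0.883 against 2 TPM. Gbp7 (ENSMUSG00000040253.15, 142530342 to 142550149), linked in mice to oxidative and autophagic defence against bacteria, had 6.18 TPM in library 3, against 1.43 and 2.15 TPM in libraries 1 and 2 (edgeR adjusted p = 4.73e-04). A processed pseudogene on the same strand, Gm43802, lies inside Gbp7 and shares 637 bases of its exons. It was listed at 1.36 TPM in library 3, against 0.87 and 0.03 TPM in libraries 1 and 2, and reads from that stretch cannot be assigned to either gene with certainty.

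Gbp8 and Gbp4 lie on the minus strand of chromosome 5 within 125 kb, in overlapping spans that also cover Gbp9. Gbp4 (ENSMUSG00000079363.7, 105115767 to 105139586) had 8.33 TPM in library 3, against 2.50 and 2.12 TPM in libraries 1 and 2 (edgeR adjusted p = 6.32e-05). Gbp8 (ENSMUSG00000034438.16, 105014150 to 105139540) had 7.98 TPM in library 3, against 1.87 and 1.71 TPM in libraries 1 and 2 (edgeR adjusted p = 4.12e-04). For both genes the value in library 3 was far from the other 2, which were close to each other. The annotated exons of Gbp4 and Gbp8 share only 61 bases, but their transcripts are 94.9% identical over an aligned 705 bases. Gbp8 is 96.0% identical to Gbp11 over 619 bases, but Gbp11 was listed at 0.07 TPM in library 3 and at 0 in libraries 1 and 2. Gbp9 had 10.5 TPM in library 3, against 7.11 and 6.23 TPM in libraries 1 and 2. It is 93.8% identical to Gbp4 over 1248 bases and 94.5% identical to Gbp8 over 620 bases. Gbp6 is 95.2% identical to Gbp8 over 620 bases. Reads from the alike stretches may be hard to divide between these genes. The authors' SD of the count was small, however. In library 3 it was 1.87 for Gbp4, with 2213 counts, and 1.86 for Gbp8, with 1193 counts.

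The 4 IRG genes lie on chromosome 11. Ifi47 (ENSMUSG00000078920.3, plus strand, 49076587 to 49096974), an IRG also named IRG-47, had the largest range of the 10 genes in TPM, with 10.2 TPM in library 3, against 3.71 and 2.21 TPM in libraries 1 and 2. Its mean was 5.37 TPM ± 4.24 (SD, n = 3; edgeR adjusted p = 2.13e-05). Irgm1 (ENSMUSG00000046879.7, minus strand, 48861968 to 48871683), a regulatory IRG required for resistance to mycobacteria in mice, had 5.26 TPM in library 3, against 5.13 and 3.43 TPM in libraries 1 and 2 (edgeR adjusted p = 9.69e-07). For Irgm1 it was library 2 that lay apart, and libraries 3 and 1 were nearly equal.

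Igtp and Irgm2 overlap on the plus strand and share 162 bases of exon. Igtp (ENSMUSG00000078853.8, 58199556 to 58207591), also named Irgm3, had 3.21 TPM in library 3, against 2.05 and 1.75 TPM in libraries 1 and 2 (edgeR adjusted p = 0.00136). Irgm2 (ENSMUSG00000069874.7, 58199618 to 58222782), a regulatory IRG found on the Golgi, had 2.24 TPM in library 3, against 0.92 and 1.21 TPM in libraries 1 and 2. It was the lowest of the 10, at 1.46 TPM ± 0.694 (SD, n = 3), and it was called neither above nor below 1 TPM (edgeR adjusted p = 0.136). The authors' deposited interval of its TPM, which covers estimation within a library, was 2.03 to 2.39 in library 3, against 0.819 to 1.01 in library 1, and in library 2 it lay above 1 TPM, with an upper bound of 1.31. With the total over protein-coding genes, the same gene had 20.9 TPM in library 3, against 8.43 and 12.3 TPM in libraries 1 and 2.

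Ordered by mean TPM, the genes ran Gbp2, Ifi47, Irgm1, Gbp4, Gbp3, Gbp8, Gbp7, Igtp, Gbp5 and Irgm2. The ranges of the 3 libraries overlapped for all 9 pairs of neighbours in this order. Taken within each library, the log2 ratio of Gbp5 over Irgm2 was 0.487 ± 0.486 (SD, n = 3), about as large as its spread. For every other pair of neighbours the mean ratio was smaller than its SD. The order also changed between libraries. Ifi47, Gbp4 and Gbp8 held ranks 1, 2 and 3 in library 3, where they were 3, 5 and 7 in library 1 and 4, 6 and 8 in library 2. Irgm1, the highest of the 10 in library 1, ranked 7 in library 3. Gbp2 ranked 4 in library 3, 2 in library 1 and 1 in library 2.

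The level of the 6 GBP genes was set against that of the 4 IRG genes. The mean log2(TPM + 0.1) of the GBPs minus that of the IRGs was 0.43 in library 3, against -0.04 and 0.24 in libraries 1 and 2. The mean difference of 0.21 ± 0.24 (SD, n = 3) was smaller than its spread, but without library 1 it was 0.34 ± 0.13 (SD, n = 2). Summed over members, the GBPs had 37.8 TPM in library 3, against 15.7 and 16.2 TPM in libraries 1 and 2. The IRGs had 20.9 TPM in library 3, against 11.8 and 8.60 TPM in libraries 1 and 2.

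All 10 genes had their highest TPM in library 3, as did 58.2% of 8302 protein-coding genes with a mean of at least 1 TPM. To set this on a common footing, log2(TPM + 0.1) in library 3 minus the mean of libraries 1 and 2 was taken relative to its median over those 8302 genes, which was 0.30. This comparison within 1 group has no test. All 10 members lay above 0 on that centred scale, where 50.0% of the 8302 genes do, and their median was 0.77. With a pseudocount of 1 the median was 0.49. The number above 0 was 9 with TMM scaling in place of centring, and 8 with TPM that the authors made from the reads, an alternative chosen after seeing the data. Gbp8 (1.80), Gbp4 (1.52), Ifi47 (1.50) and Gbp7 (1.46) lay at or above 1, as did 5.66% of the 8302 genes.

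The other 6 members covered the range from near 0 to 0.82. Gbp5 had 0.82, Irgm2 0.72, Igtp 0.44 and Gbp3 0.34 on the centred log2 scale. Gbp2 at 0.07 and Irgm1 at 0.02 were at the median coding gene, and their sign depended on the library compared: Irgm1 was at -0.17 against library 1 alone and Gbp2 at -0.06 against library 2 alone. Relative to the coding median, library 3 was 3.49 times as high for Gbp8 and 2.76 times as high for Gbp7, where it was 1.05 times as high for Gbp2 and 1.02 times as high for Irgm1. The chromosome 3 and the chromosome 11 groups each held genes near both ends of this range.

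Read against the 8302 coding genes one by one, the 10 members fell into a graded series. A centred difference as large as that of Gbp8 was seen in 1.04% of those genes, as large as that of Gbp4 in 1.72%, that of Ifi47 in 1.77% and that of Gbp7 in 1.92%. For Gbp5 the share was 9.07%, for Irgm2 11.3%, for Igtp 21.9% and for Gbp3 27.0%. Gbp2 at 44.7% and Irgm1 at 48.2% were close to the middle of the coding genes. The first 4 therefore had differences that few coding genes matched, and the last 2 had differences like those of most genes.

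The estimates that the authors made from the reads themselves, summed per gene, gave higher TPM but a like pattern. Gbp8 had 14.3 TPM in library 3, against 3.04 and 2.68 TPM in libraries 1 and 2 in those estimates. Ifi47 had 18.2 TPM in library 3, against 5.65 and 3.52 TPM in libraries 1 and 2. Irgm1 had 9.14 TPM in library 3, against 7.99 and 5.43 TPM in libraries 1 and 2. On these values the centred difference was 1.77 for Gbp8, 1.40 for Gbp4, 1.50 for Ifi47 and 1.48 for Gbp7, while Gbp2 and Irgm1 were at -0.05 and -0.04. The 4 members at or above 1 were thus the same in both sets of estimates. Between libraries 2 and 1 themselves, 4 of 10 members were higher in library 2, and the members' median log2 difference was -0.17, where that of coding genes was -0.16.

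Markers of natural killer (NK) cells, a source of interferon gamma, were likewise higher in library 3. All 9 NK markers lay above 1 TPM, all 9 were higher in library 3 on the centred scale, with a median of 1.41, and they summed to 1710 TPM in library 3, against 707 and 598 TPM in libraries 1 and 2. Ncr1, an activating receptor that defines NK cells, had 133 TPM in library 3, against 41.8 and 39.8 TPM in libraries 1 and 2. Of 8 T cell markers, 3 lay above 1 TPM and 1 below, with a sum of 51.5 TPM in library 3, against 22.9 and 17.5 TPM in libraries 1 and 2. Most of that sum was the kinase Lck, while the defining chain Cd3e had 0.16 TPM in library 3, against 0.08 and 0.03 TPM in libraries 1 and 2. The parts of NK and T cell RNA in the members' difference were not tested.

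Other lists differed in both directions. The centred median was -0.28 for monocyte markers, and -0.45 for B cell markers, of which 5 of 6 lay above 1 TPM, with a sum of 82.1 TPM in library 3, against 91.8 and 91.7 TPM in libraries 1 and 2. Platelet markers, 4 of 6 above 1 TPM, summed to 96.5 TPM in library 3, against 15.3 and 11.2 TPM in libraries 1 and 2. Erythroid markers, 5 of 6 above, summed to 262 TPM in library 3, against 3534 and 3327 TPM in libraries 1 and 2. Granulocyte markers summed lower in library 3 as well. Neutrophil markers, 2 of 7 above and Ly6g at 0 counts in every library, summed to 9.62 TPM in library 3, against 142 and 128 TPM in libraries 1 and 2. Most of that sum in libraries 1 and 2 was Retnlg, which had 0 TPM in library 3, against 124 and 114 TPM in libraries 1 and 2, while Csf3r had 8.09 TPM in library 3, against 5.99 and 6.64 TPM in libraries 1 and 2. Basophil, eosinophil and mast cell markers, 4 of 7 above and Epx at 0 counts in every library, summed to 3.84 TPM in library 3, against 27.4 and 28.4 TPM in libraries 1 and 2. The part of these cell types in the members' levels was not tested, and in bulk RNA fewer cells of a type cannot be told apart from less RNA per cell. The fragment size range recorded for library 3, 200 to 1000 bp, also differed from 200 to 594 bp in library 1 and 200 to 491 bp in library 2, and its part was not tested.

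**Figure D3:**
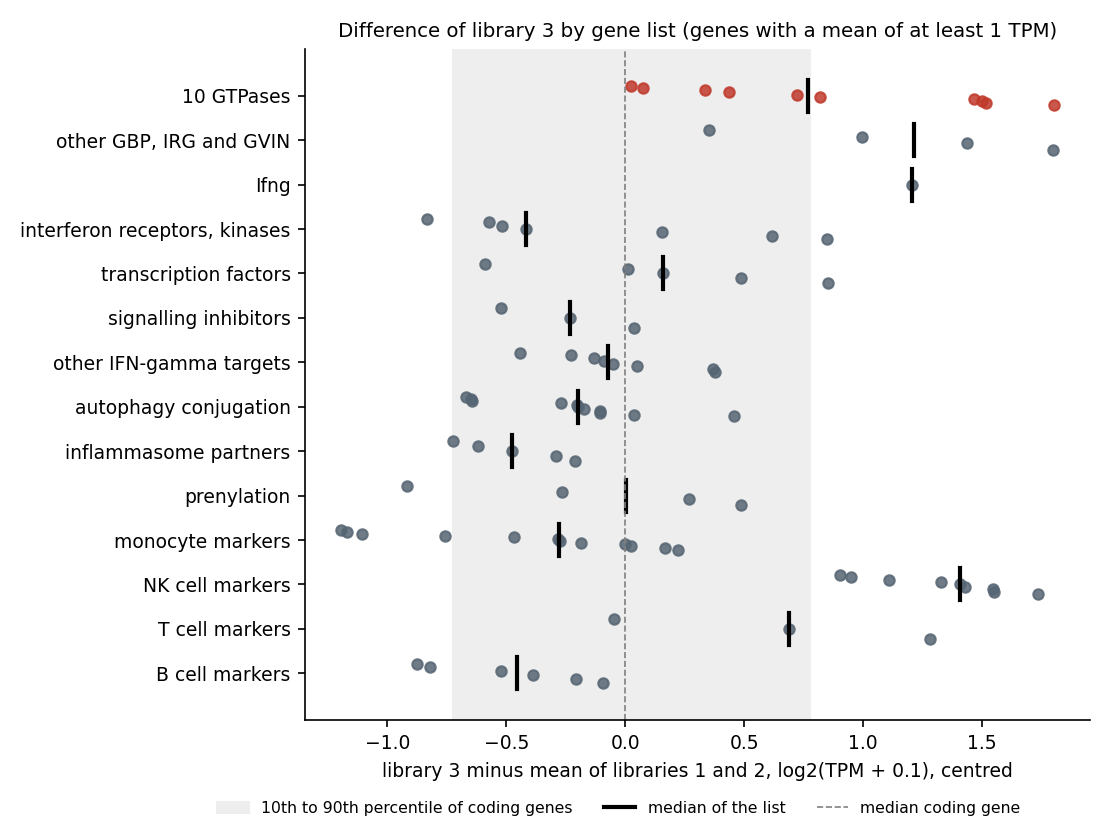
Centred difference of library 3 from libraries 1 and 2 in log2(TPM + 0.1) for each gene with a mean of at least 1 TPM, by list, with the 10 GTPases in red, list medians as black bars and the 10th to 90th percentile of coding genes shaded. The GTPases spread from 0.02 to 1.80, the NK cell markers lie at 0.90 or above, and the inflammasome and B cell lists lie below 0.

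Most members were read from coding transcripts, and Gbp4 and Gbp8 were the exceptions. Of 40 annotated transcripts of the 10 genes, 14 made up at least 10% of their gene's TPM on average. For Gbp2, Gbp7, Igtp, Irgm2, Gbp3 and Ifi47 the deposited transcript tables put 100% of TPM on protein-coding transcripts in every library, to within rounding, with Gbp2-201, Gbp3-202, Gbp7-201, Igtp-201 and Ifi47-201 as the leading forms. Gbp5-201 carried 89.3% of Gbp5 in library 3, against 86.9% and 91.6% in libraries 1 and 2. The leading form of Gbp4 was Gbp4-202, annotated as a target of nonsense-mediated decay, with 46.7% of Gbp4 TPM in library 3, against 84.8% and 86.3% in libraries 1 and 2. Protein-coding forms, among them Gbp4-206, took 50.9% in library 3, against 9.60% and 12.3% in libraries 1 and 2. In TPM the coding forms of Gbp4 had 4.24 in library 3, against 0.24 and 0.26 in libraries 1 and 2. Most of that difference was Gbp4-201, listed at 2.46 TPM in library 3 and at 0 in libraries 1 and 2. Gbp4-201 has 4538 bases and the decay target Gbp4-202 has 4509. How surely reads were divided between these 2 forms was not tested.

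The estimates made from the reads gave Gbp4 coding shares of 50.2% in library 3, against 22.3% and 18.8% in libraries 1 and 2. Library 3 was higher in both sets. For Gbp8 the leading form was Gbp8-204, a processed transcript without an annotated reading frame, at 73.4% in library 3, against 46.5% and 78.4% in libraries 1 and 2. The coding share of Gbp8, from Gbp8-201 and Gbp8-202, was 15.4% in library 3, against 46.5% and 18.7% in libraries 1 and 2. The estimates made from the reads put it at 27.2% in library 3, against 52.8% and 49.9% in libraries 1 and 2. The 2 sets thus differed on library 2 by more than the difference between libraries 3 and 2 in the first set.

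The forms assigned to Irgm1 and Irgm2 varied between libraries and between the sets of estimates. Irgm1-202 took 71.9% of Irgm1 in library 3, against 58.8% and 91.0% in libraries 1 and 2, and Irgm1-201 took most of the rest. Irgm2-202 took 72.3% of Irgm2 in library 3, against 100% and 13.2% in libraries 1 and 2. Irgm2-203 was listed at 0 in libraries 3 and 1 and took 86.8% in library 2. The estimates made from the reads instead put 100% of Irgm2 on Irgm2-203 in libraries 1 and 2, so that the assignment in library 1 was opposite between the sets.

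**Figure D4:**
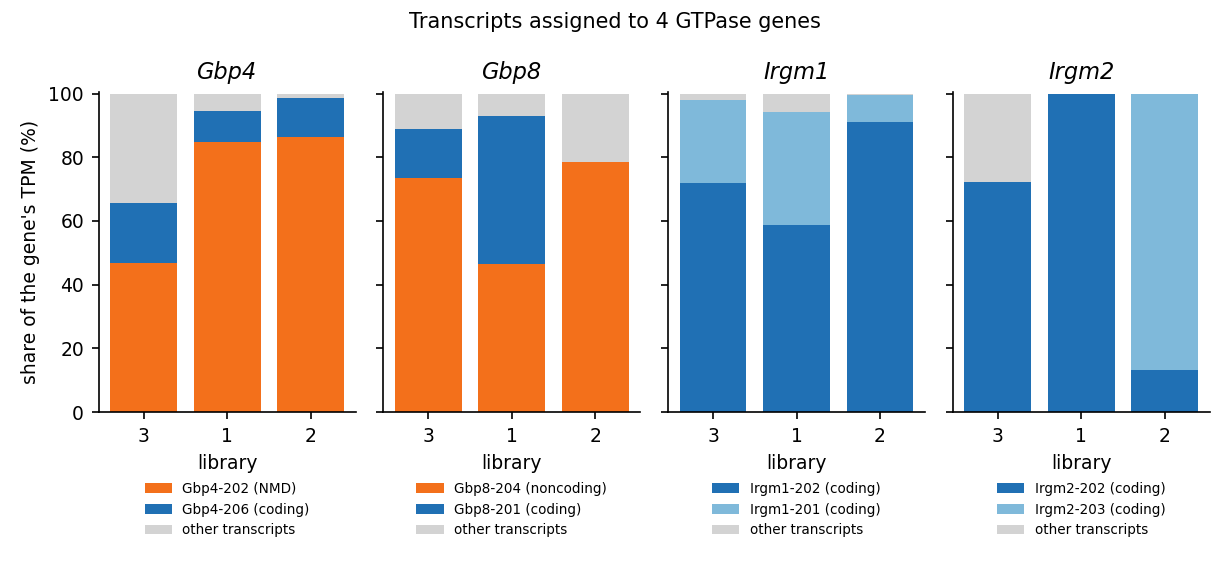
Share of each gene's TPM (%) taken by its transcripts in libraries 3, 1 and 2 for Gbp4, Gbp8, Irgm1 and Irgm2, in the alignment-based tables, with coding forms in blue, forms annotated as noncoding or as decay targets (NMD) in orange and the rest in grey. The decay target Gbp4-202 takes 46.7% of Gbp4 in library 3, against 84.8% and 86.3% in libraries 1 and 2.

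Among 15 further genes of the GBP, IRG and related GVIN families, 3 were called above 1 TPM, 2 were called below it, 7 were called neither way, and 3 had too few counts to test. Gvin1, a very large interferon-inducible GTPase, was higher than any of the 10 members, with 81.8 TPM in library 3, against 32.5 and 34.3 TPM in libraries 1 and 2. Gbp9 had 10.5 TPM in library 3, against 7.11 and 6.23 TPM in libraries 1 and 2. The effector IRG Tgtp2 had 8.83 TPM in library 3, against 2.65 and 1.49 TPM in libraries 1 and 2, while Tgtp1, with which it can share reads, lay below 1 TPM at 0.13, 0.18 and 0.28 TPM in libraries 3, 1 and 2. Gm12250 (also Irgb10) had 3.41 TPM in library 3, against 1.17 and 0.78 TPM in libraries 1 and 2, and Gbp6 had 1.37 TPM in library 3, against 0.81 and 0.58 TPM in libraries 1 and 2. Neither was called on a side of 1 TPM. Irgq lay below 1 TPM, at 0.71 TPM in library 3, against 0.30 and 0.23 TPM in libraries 1 and 2. Gbp2b, Gbp10, Gbp11 and Iigp1 all had means under 0.1 TPM, and F830016B08Rik had 0 counts in every library.

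The ligand and signalling genes that lead to these GTPases were largely present. Ifng, the gene of interferon gamma, had 18.2 TPM in library 3, against 6.24 and 6.53 TPM in libraries 1 and 2 (edgeR adjusted p = 1.23e-07). Its centred difference was 1.20, where the NK markers given above had a median of 1.41, and the part of NK cell RNA in it was not tested. The type I interferon genes Ifnb1, Ifna1, Ifna2 and Ifna4 had 0 counts in every library, which for Ifnb1 allows up to 0.0700 TPM in library 3, against 0.0465 and 0.0420 TPM in libraries 1 and 2, for counting error alone. All 7 receptor and kinase genes lay above 1 TPM, led by the receptor chain Ifngr1 at 119 TPM ± 12.8 and the kinase Jak1 at 32.5 TPM ± 12.9 (SD, n = 3 each), with the second receptor chain Ifngr2 the lowest at 3.93 TPM ± 1.13 (SD, n = 3). All 5 transcription factor genes described here lay above 1 TPM too. Irf1, which drives Gbp genes in mice, had 31.0 TPM in library 3, against 39.7 and 36.4 TPM in libraries 1 and 2, Irf8 was next with a mean of 30.3 TPM, and Stat2 was the lowest with a mean of 2.62 TPM.

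Inhibitors and other targets of the pathway were present in part. Of 5 inhibitors 3 lay above 1 TPM, with the phosphatase Ptpn6 at a mean of 158 TPM, Ptpn2 at 14.5 TPM, and the feedback inhibitor Socs1 the lowest. Socs1 had 0.65 TPM in library 3, against 0.15 and 0.14 TPM in libraries 1 and 2. Of 12 other interferon gamma targets 7 lay above 1 TPM, led by B2m at 518 TPM and the immunoproteasome subunit Psmb8 at 44.6 TPM, and Nos2 had 0 counts in every library. Centred on the coding median, the 8 of these targets with a mean of at least 1 TPM had a median of -0.07. None was at or above 1, which for 8 genes is near the share of 5.66% among the 8302 coding genes. Of the 10 GTPases, 4 were at or above 1, and the contrast was not tested. The 4 further GBP, IRG and GVIN genes with a mean of at least 1 TPM had a median of 1.21. Among them Tgtp2 was at 1.80, Gm12250 at 1.44, Gvin1 at 0.99 and Gbp9 at 0.35.

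Most listed genes of the machinery with which GBPs and IRGs work lay above 1 TPM, as did 54.0% of all protein-coding genes tested. Of 12 genes of autophagy, whose conjugation system places GTPases on vacuoles, 11 lay above 1 TPM. Sqstm1 at 108 TPM and Gabarap at 29.3 TPM were the highest, and Map1lc3a was the lowest, at 0.847 TPM on neither side. All 5 inflammasome partners lay above 1 TPM, with the pore-forming Gsdmd at 35.6 TPM, Casp1 at 16.4 TPM and Nlrp3 the lowest at 4.50 TPM. Of 5 prenylation genes 3 lay above 1 TPM, with Fnta at 8.85 TPM and Pggt1b at 2.94 TPM the highest, and Fntb at 0.553 TPM the lowest. No gene of the inflammasome, prenylation, autophagy and transcription factor lists had a centred difference of 1 or more in library 3, where 5.66% of the 8302 coding genes did.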

How the data were processed

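Per the notes deposited beside the files, the authors quantified the reads against mm10, with GENCODE M21 in one set of tables and GENCODE M4 in another. Programs and strand setting were not given in the sources used here. Deposited gene tables hold an expected count, the authors' estimate of reads per gene, and TPM, scaled by the authors over every row, short noncoding RNAs included. The deposited transcript tables give each transcript's share of its gene in percent, and further tables were made by the authors from the reads. Depth and TPM scaling are given with the results.

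The M21 gene tables were used. Of 55536 genes, 55450 matched the GENCODE annotation. Expected counts were rounded and fitted with edgeR 4.0.16 (R 4.3.3), intercept only, with the count that 1 TPM stands for as offset. The two-sided test against 1 TPM, at an adjusted p of 0.05, took in all genes whose counts summed to at least 10. F was computed from the fit's deviances and moderated dispersions, as checked on simulated data. Genes whose effective length was 0 in any library, 3471 in all, were left out. Rows naming no gene held at most 0.000571% of counts and stayed out of the tests. A count of 0 was taken to allow 3 counts, which covers counting error only. Differences between libraries used log2(TPM + 0.1). Transcripts were aligned with BLAST+ 2.17.0, and alignments of at least 500 bases were considered.

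All 10 members were named. For each other list the counts, the 2 highest and the lowest member by mean TPM were named, and of the related GTPases those with a mean of at least 0.1 TPM. A gene of the transcription factor list is not reported here. The members and lists were chosen with earlier results of these data known. Some genes were named outside this rule after their values were seen: Gbp2b, Gbp10, Gbp11, Iigp1, F830016B08Rik, Lyz2, Ctss, Csf1r, Spi1, Ncr1, Lck, Cd3e, Retnlg, Csf3r, Ifnb1 and its relatives, and Gm43802. Alternatives were other scalings (TMM and DESeq2 1.42.0 size factors), filters, tests (limma 3.58.1 and DESeq2), annotation, pseudocounts and levels, and leaving out each library.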

Additional observations from a re-analysis of the deposited data

How the results depend on the processing

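No member was called below 1 TPM under any of the alternatives tried. The number called above 1 TPM was 9 of 10 with TMM scaling, DESeq2 size factors, no filter on counts and limma, 10 on the protein-coding scale and against 0.5 TPM, and 8 of the 9 members matched by symbol in the M4 tables, where Gbp5 was not matched. It was 8 to 9 with a library left out and 6 with DESeq2's Wald test. Against 2 TPM it was 5. Of 119 member levels under alternatives, 109 kept their call, 8 lost it, 2 gained it, both of them Irgm2, and 0 reversed. The cause of the lost calls under DESeq2 was not tested. On the protein-coding scale 12092 genes lay above 1 TPM, against 7638 in all.

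The GBP minus IRG difference of 0.21 ± 0.24 (log2) was 0.10 to 0.34 with a library left out. Without library 1 it was 0.34 ± 0.13, and with the estimates made from the reads 0.33 ± 0.24, both beyond their own spread. The median centred difference of library 3 was 0.77 as reported, 0.49 with a pseudocount of 1, which shrinks low levels, and 1.07 without centring. Alternatives added after the data were seen gave 0.58 without Gbp4 and Gbp8 and 0.74 with the estimates made from the reads. Gbp4, Gbp7, Gbp8 and Ifi47 stayed between 1.11 and 2.10 in all settings. Gbp2 and Irgm1 lay below 0 in some. Samples could not be paired between groups because the series holds 1 group, while the GBP minus IRG difference was taken within each library.

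Levels are relative to a total that lies mostly outside protein-coding genes, and 3 libraries of 1 donor record give a wide spread between them. Reads of alike GBP genes cannot be divided with full certainty, though the authors' SD of a member's count reached at most 11.4.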
